A study of Homo sapiens with 12 samples.

Results

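The 3 to 6 h step of control cells is the second part of an actinomycin D chase in HepG2, an established human liver cancer line that keeps much of the hepatocyte's secretory programme. It compares 2 libraries collected 6 h after the drug with 2 collected at 3 h, so it uses 4 of the 12 libraries of the series. The members were chosen from the labels alone: cells transfected with a control siRNA (si-NC), 48 h later given actinomycin D at 5 ug/ml, and harvested at 3 h or at 6 h, replicates 1 and 2 of each. The other libraries are si-NC cells at 0 h and cells transfected with CPSF6 siRNAs (si-CPSF6) at 0, 3 and 6 h, 2 each, all from the same line and all given the same drug. CPSF6 is a subunit of cleavage factor I, which takes part in choosing the 3′ ends of mRNAs. The labels number the replicates without saying that they came from separate cultures, so p-values measure the spread between these libraries, which may be technical. si-NC cells are called control cells below, and the change from 3 to 6 h the late step.

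Actinomycin D binds DNA and stops RNA polymerases, so an mRNA that is no longer made is lost at the pace of its own decay. Regulatory mRNAs, such as those of immediate early genes and many transcription factors, are known to decay within minutes to a few hours, while mRNAs of ribosomal proteins, of energy metabolism and of secreted liver proteins are long-lived. After a few hours most of the short-lived pool has gone, and the late step compares mRNAs that were still present at 3 h. Bulk libraries give the amount of an mRNA relative to other RNA, and fewer cells and less RNA per cell cannot be told apart in them.

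The 4 libraries held 27116830 to 33271392 normalized counts, and the spacing of their values gave an estimated depth of 21752600 to 26792900 reads. The authors' counts are scaled so that the upper quartile of every library is 660.5 or 661, which sets that quartile, and not the median gene, equal in all libraries. A second scale came from ERCC spike-in RNA, synthetic transcripts added to 5 ug of total RNA, which made up 1.27% to 1.41% of the counts. The summed spike-in count was 0.27 (log2) higher at 6 h than at 3 h in control cells, while the 2 libraries of a time differed by 0.10 at 3 h and by 0.21 at 6 h. The spike-in scale therefore moves every late difference down by 0.27, a shift close to the gap between the 6 h replicates, and it refers to the mass of total RNA, not to a cell. "Rose" and "fell" below mean an adjusted p under 0.05 (limma, Benjamini-Hochberg over 12939 genes) in that direction on both scales unless 1 scale is named.

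The libraries were checked against their labels. CPSF6 stood at 3389 and 3309 normalized counts at 3 h and at 3469 and 3443 at 6 h in control cells, against 674 and 801, then 810 and 732, in silenced cells. The 10 hepatocyte markers summed to between 1176428 and 1564254 normalized counts in the 4 libraries. Of 17 stromal, endothelial and immune markers, 11 had a row and 8 were tested. COL3A1 was listed at 0 in the 4 libraries, VWF reached 2 and CDH5 reached 3 normalized counts. The whole list summed to 22385 and 15778 at 3 h and to 42618 and 29102 at 6 h, nearly all of it LYZ, which HepG2 cells express. Without LYZ the sums were 2164 and 2194, then 3243 and 3255, and the part of these genes in any result was not tested. Mitochondrially encoded RNA took 10.4% and 10.3% of counts at 3 h and 9.23% of counts in both libraries at 6 h.

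As deposited, 3768 genes were higher at 6 h than at 3 h and 2503 were lower, 29.1% and 19.3% of the genes tested. On the spike-in scale 834 were higher (6.45%) and 3390 lower (26.2%). These shares over all genes are the background for the list counts below. The median gene moved by 0.09 as deposited and by -0.18 on the spike-in scale, where 88.3% of its 3 h level was left at 6 h; from 0 to 3 h the median gene had moved by -0.43. Of the called genes 60.1% were higher as deposited, 19.7% on the spike-in scale and 25.2% in the deposited TPM table, so the split between rises and falls follows the scale. Across both scales, 832 genes rose on both scales (6.43%) and 2501 fell on both (19.3%), while 2936 were called higher only as deposited and 889 called lower only on the spike-in scale.

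Among the largest falls were those of HAMP, ID2 and CEBPA. HAMP (ENSG00000105697.9, chr19:35280716-35285143, + strand, hg38), which encodes the iron hormone hepcidin, stood at 194 and 259 normalized counts at 3 h and at 14 and 27 at 6 h. Every 6 h library was far below every 3 h library, a log2 difference of -3.46 as deposited (SE 0.31, adjusted p = 1.2e-05). HAMP had already lost 3.34 (log2, spike-in scale) from 0 to 3 h. ID2 (chr2:8678845-8684453), an inhibitor of basic helix-loop-helix factors and like HAMP a target of BMP signalling, went from 746 and 758 to 98 and 125, a log2 fall of 2.75 ± 0.12 (SE), after 6297 and 7093 at 0 h. CEBPA, a transcription factor of hepatocyte identity, went from 771 and 1090 to 113 and 181. ID2 and CEBPA too had fallen before 3 h, by 3.84 and 3.25 on the spike-in scale. A difference between the late and the early step was not called for any of the 3 (adjusted p = 0.75 for HAMP, 0.051 for ID2 and 0.82 for CEBPA).

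A second set of large falls concerned mRNAs that had changed little by 3 h. SLC6A12, a betaine and GABA transporter, was at 383 and 343 at 0 h, 406 and 352 at 3 h, and 48 and 40 at 6 h. PTGDR2, a prostaglandin D2 receptor, was at 328 and 431, then 452 and 502, then 51 and 75. FAM120A (chr9:93451722-93566107), which encodes an RNA-binding scaffold protein, was at 2358 and 2325, then 3368 and 3208, then 823 and 721. In each of them the 6 h libraries lay below all 0 and 3 h libraries, and the late minus the early step (log2, spike-in scale) was -2.71 for SLC6A12 (adjusted p = 1.2e-07), -2.84 for PTGDR2 (0.04) and -2.16 for FAM120A (3.6e-09). The same held for the cation channel gene TRPV4, for NIPSNAP2 of mitochondria, for the pseudogene ACSL3P1 and for GM2A, the activator protein of lysosomal ganglioside breakdown, which stood at 2677 and 2908 at 3 h and at 746 and 849 at 6 h. PHLDA3, a p53 target that restrains AKT, was at 988 and 1098 at 3 h and at 123 and 175 at 6 h (fall of 2.82 ± 0.17, log2, SE), and SLC51B, a subunit of the basolateral bile acid exporter, at 318 and 324 and then 38 and 77. Other large falls were those of THAP11, a transcription factor of the THAP family, and ATG101, a subunit of the complex that starts autophagy. ATG101 had already fallen by 3 h, from 919 and 943 at 0 h to 374 and 446. For ATG101 a difference between the late and the early step was not called on the spike-in scale (adjusted p = 0.19). HSPA1A and HSPA1B, near-identical heat shock genes whose reads the counting may have split in either way, fell by 2.38 and 2.47 as deposited; with a fit on only the 4 libraries HSPA1A missed the threshold on the spike-in scale (adjusted p = 0.065).

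**Figure D1:**
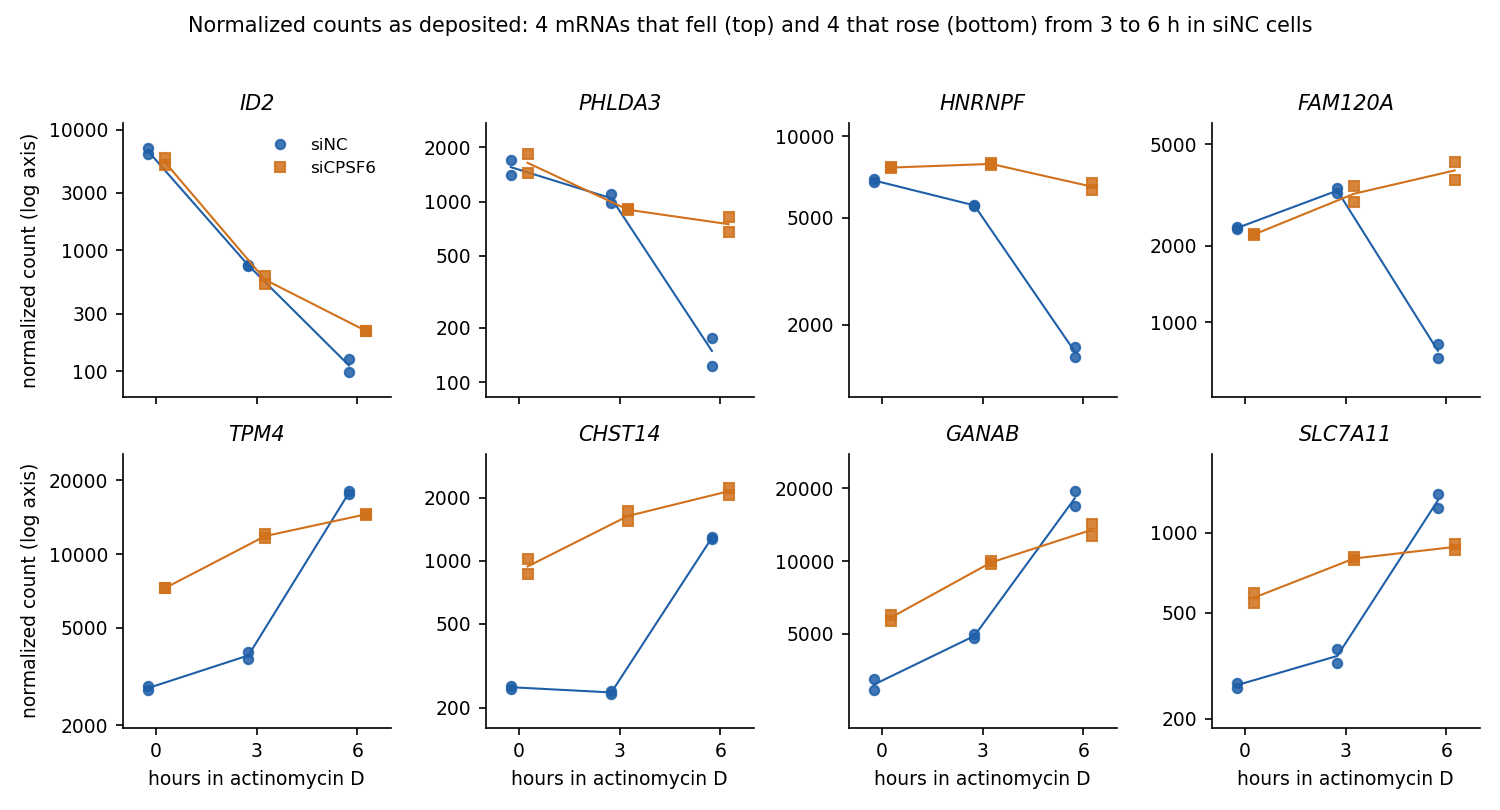
Normalized counts as deposited (y axis, log scale) against hours in actinomycin D (x axis) for 8 genes; each point is 1 library, circles are control cells, squares are silenced cells, and lines join the means of 2 libraries. In the top row the control libraries drop between 3 and 6 h, HNRNPF from 5515 and 5586 to 1526 and 1658; in the bottom row they climb, TPM4 from 3734 and 3984 to 17992 and 17525.

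Among the largest rises were those of TPM4, CHST14 and NTN4. TPM4 (ENSG00000167460.17, chr19:16067021-16103005, + strand), a tropomyosin of the actin cytoskeleton, stood at 3734 and 3984 normalized counts at 3 h and at 17992 and 17525 at 6 h, 4.6-fold higher as deposited and 3.81-fold on the spike-in scale. Its log2 difference as deposited was 2.20 ± 0.06 (SE, adjusted p = 6.2e-12). CHST14, a dermatan sulfotransferase of the Golgi, went from 239 and 233 to 1304 and 1270, and NTN4, a secreted netrin, from 116 and 116 to 596 and 520. In these genes the 6 h libraries stood far above both the 3 h and the 0 h libraries, which were 254 and 246 for CHST14 and 125 and 129 for NTN4. GANAB, the catalytic subunit of ER glucosidase II, went from 5009 and 4778 to 19503 and 16960, and MESD, an ER chaperone of LRP receptors, from 1120 and 1038 to 4461 and 4425. NT5E, which encodes the surface ectonucleotidase CD73, went from 72 and 67 to 381 and 268. SERPINI1, LCN15 and HABP4 were also among the largest rises, together with the cystine transporter SLC7A11 described below. UGT1A1, the bilirubin-conjugating enzyme, was at 29 and 24 at 3 h and at 245 and 200 at 6 h, but its exons overlap those of 8 annotated genes on the same strand, so the reads cannot be assigned to it with certainty.

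Genes that rose at least 2-fold as deposited and passed on both scales numbered 304, and those that fell at least 2-fold and passed on both numbered 510. In silenced cells, whose late step did not choose these genes although their libraries enter the shared error of the fit, the 304 had a median late step of 0.32 as deposited and the 510 one of -0.56, beside 0.13 for all genes. Of the 304, 222 stood higher at 6 h than at 0 h in control cells without overlap of the libraries on the spike-in scale, beside 18.2% of all genes; the 6 h values also chose these genes. Of the 510, the median early step on the spike-in scale was -1.25, beside -0.43 for all genes.

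The mitosis list moved down on both scales. Over all genes 19.3% were lower and 29.1% higher as deposited, and 26.2% and 6.45% on the spike-in scale. Of 43 tested genes of mitosis and G2/M, 27 were lower and 4 higher as deposited, and 32 were lower and 0 higher on the spike-in scale, with a median of -0.51 and -0.78 on the respective scales. PLK1, the polo-like kinase of mitotic entry, stood at 3012 and 3977 normalized counts at 3 h and 999 and 1156 at 6 h, after 6126 and 6938 at 0 h. CDCA8, a subunit of the chromosomal passenger complex, fell from 959 and 987 to 307 and 327, CKS2, which binds cyclin-dependent kinases, from 1376 and 1319 to 443 and 513, and TTK, a spindle checkpoint kinase, from 339 and 360 to 124 and 119. These falls ran from 1.50 to 1.69 (log2, as deposited), with no overlap between the libraries of the 2 times. The same list had a median of -0.46 as deposited in silenced cells, and a difference between the arms was not called for any of these 4 (adjusted p = 0.26 to 0.44). Among all 43, the late step was called higher in control cells for 5 and lower for 5, beside 7.47% and 7.84% of all genes. Of 58 genes of DNA replication and G1/S, 17 were lower and 13 higher as deposited, and 26 lower and 2 higher on the spike-in scale. The 4 named fell: UHRF1, which recruits the maintenance DNA methyltransferase, from 1417 and 1320 to 448 and 541, the clamp loader subunits RFC1 from 1907 and 1942 to 539 and 695 and RFC4 from 648 and 640 to 248 and 246, and the flap endonuclease FEN1, which shares exon sequence with a neighbour on the same strand, from 1720 and 1779 to 360 and 459.

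Signalling lists differed from each other. Of 34 tested genes of Wnt and beta-catenin signalling, 21 were lower and 1 higher on the spike-in scale, and 17 lower and 5 higher as deposited. DKK1, a secreted Wnt inhibitor and one of the most abundant of them, stood at 34266 and 32099 at 0 h, 11342 and 11031 at 3 h and 2721 and 2709 at 6 h, a late fall of 2.04 ± 0.09 (log2, SE, as deposited). The R-spondin receptor LGR4 fell from 1841 and 1488 to 576 and 611, the Wnt receptor FZD4 from 2725 and 2875 to 1225 and 1296, and the Wnt target SP5 from 659 and 692 to 204 and 247. These are an inhibitor, 2 receptors and a transcription factor of the pathway, so both brakes and positive parts of it fell. Of 14 BMP and TGF-beta targets, 8 were lower on either scale and 1 higher, ID2 and HAMP first among them. Of 17 NF-kB pathway genes 3 were lower and 2 higher on the spike-in scale, and of 14 DUSP and Sprouty genes, which limit kinase signalling, 3 were lower and 0 higher. Both shares of lower genes were below the 26.2% of all genes. Of 22 Notch genes 5 were lower and 4 higher as deposited and 8 lower and 1 higher on the spike-in scale, with falls in NRARP, a feedback inhibitor, from 349 and 318 to 88 and 96, and in the ligand JAG1.

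All 15 RNAs encoded by mitochondrial DNA were called as deposited, 12 lower and 3 higher, and 12 were lower and 0 higher on the spike-in scale. MT-ND2, a complex I subunit, stood at 127480 and 124404 at 0 h, 39017 and 37721 at 3 h and 14595 and 14691 at 6 h. MT-CYB, the complex III cytochrome, showed the same order of times, with 33310 and 34250 at 3 h and 13377 and 14788 at 6 h. MT-ND4L went up before it went down, from 7567 and 6644 through 13675 and 14785 to 5535 and 5342, and the difference of its late and early step was -1.97 (log2, adjusted p = 6.2e-08). MT-RNR1, the small mitochondrial ribosomal RNA, stood apart from these mRNAs: it went from 44223 and 43085 to 351531 and 340893 at 3 h and to 428092 and 405786 at 6 h, and its late difference was 0.27 as deposited (adjusted p = 0.02) and -0.01 on the spike-in scale (0.98). By contrast, of 77 nuclear genes of the respiratory chain 59 were higher and 1 lower as deposited and 7 higher and 1 lower on the spike-in scale. Cytochrome c, CYCS, rose from 2275 and 2392 to 6231 and 6497 and the complex II subunit SDHB from 1311 and 1245 to 2668 and 2621.

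Lists of genes that control RNA differed in how far they moved. The shares over all genes were 19.3% lower and 29.1% higher as deposited, and 26.2% and 6.45% on the spike-in scale. Of 19 genes that write, read or remove m6A, 8 were lower and 3 higher as deposited and 10 lower and 0 higher on the spike-in scale. VIRMA, a subunit of the methyltransferase complex, fell from 554 and 602 to 236 and 245. ALKBH5, an m6A demethylase, fell from 1048 and 936 to 523 and 602. Of 58 genes of deadenylation and decay 16 were lower and 12 higher as deposited and 22 lower and 3 higher on the spike-in scale, including the exosome genes EXOSC9, from 549 and 635 to 161 and 170, and EXOSC10, and CNOT11 of the CCR4-NOT deadenylase. Of 35 SR proteins and hnRNPs 7 were lower and 9 higher as deposited and 9 lower and 1 higher on the spike-in scale, a share of lower genes near the 26.2% of all genes. The splicing regulator HNRNPF (chr10:43385617-43409166, - strand) had the largest fall of that list, from 5515 and 5586 to 1526 and 1658 (log2 -1.80 ± 0.06, SE, as deposited, adjusted p = 7.2e-11), and its relative HNRNPH2 fell from 1826 and 1739 to 835 and 1011. Of 22 genes of 3′ end processing, the pathway CPSF6 belongs to, 6 were lower and 5 higher as deposited and 8 lower and 1 higher on the spike-in scale: FIP1L1 fell from 269 and 292 to 102 and 75 and CSTF1 from 277 and 242 to 115 and 124, while PPP1CB, a phosphatase subunit, rose from 1769 and 1632 to 3111 and 3561. CPSF6 itself did not pass on either scale in control cells.

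Liver transcription factors and lipid genes moved in both directions. All genes together had 19.3% lower and 29.1% higher as deposited, and 26.2% and 6.45% on the spike-in scale. Of 32 hepatocyte transcription factors 10 were lower and 7 higher as deposited, and 13 lower and 1 higher on the spike-in scale. The bile acid receptor gene NR1H4 fell from 990 and 980 to 343 and 411, CREB3L3, an ER-bound factor of lipid metabolism, from 106 and 131 to 30 and 26, and NR2F6 from 2962 and 2521 to 1618 and 1707. PPARG, the lipid-sensing nuclear receptor, was the one higher on the spike-in scale, from 141 and 128 to 504 and 420. In cholesterol synthesis 7 of 28 genes were lower and 9 higher as deposited, and 10 lower and 3 higher on the spike-in scale, with SQLE, squalene epoxidase, at 3213 and 3013 and then 835 and 940, and HSD17B7 and MSMO1 also lower. In the NRF2 list 9 of 28 were lower and 9 higher as deposited, and 12 lower and 1 higher on the spike-in scale: the factor NFE2L2 itself, its inhibitor KEAP1 and GCLC of glutathione synthesis fell, GCLC from 760 and 895 to 298 and 292, and SLC7A11 was the one higher on the spike-in scale. Among 34 heat shock genes 14 were lower and 13 higher as deposited, and 14 lower and 3 higher on the spike-in scale; the cytosolic chaperone HSPA8 fell from 19022 and 17611 to 7738 and 9323 and the co-chaperone BAG3 from 211 and 197 to 66 and 65, whereas the mitochondrial chaperonin HSPD1 rose from 50556 and 48560 to 98796 and 101646. The oxygen sensor EGLN1 and the hypoxia factor HIF1A fell as well, by 1.25 and 0.96 (log2) as deposited. Their list did not move down as a whole: of 22 hypoxia genes 3 were lower and 4 higher as deposited. On the spike-in scale 6 were lower and 3 higher, and the list medians were 0.29 as deposited and 0.02 on the spike-in scale.

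**Figure D2:**
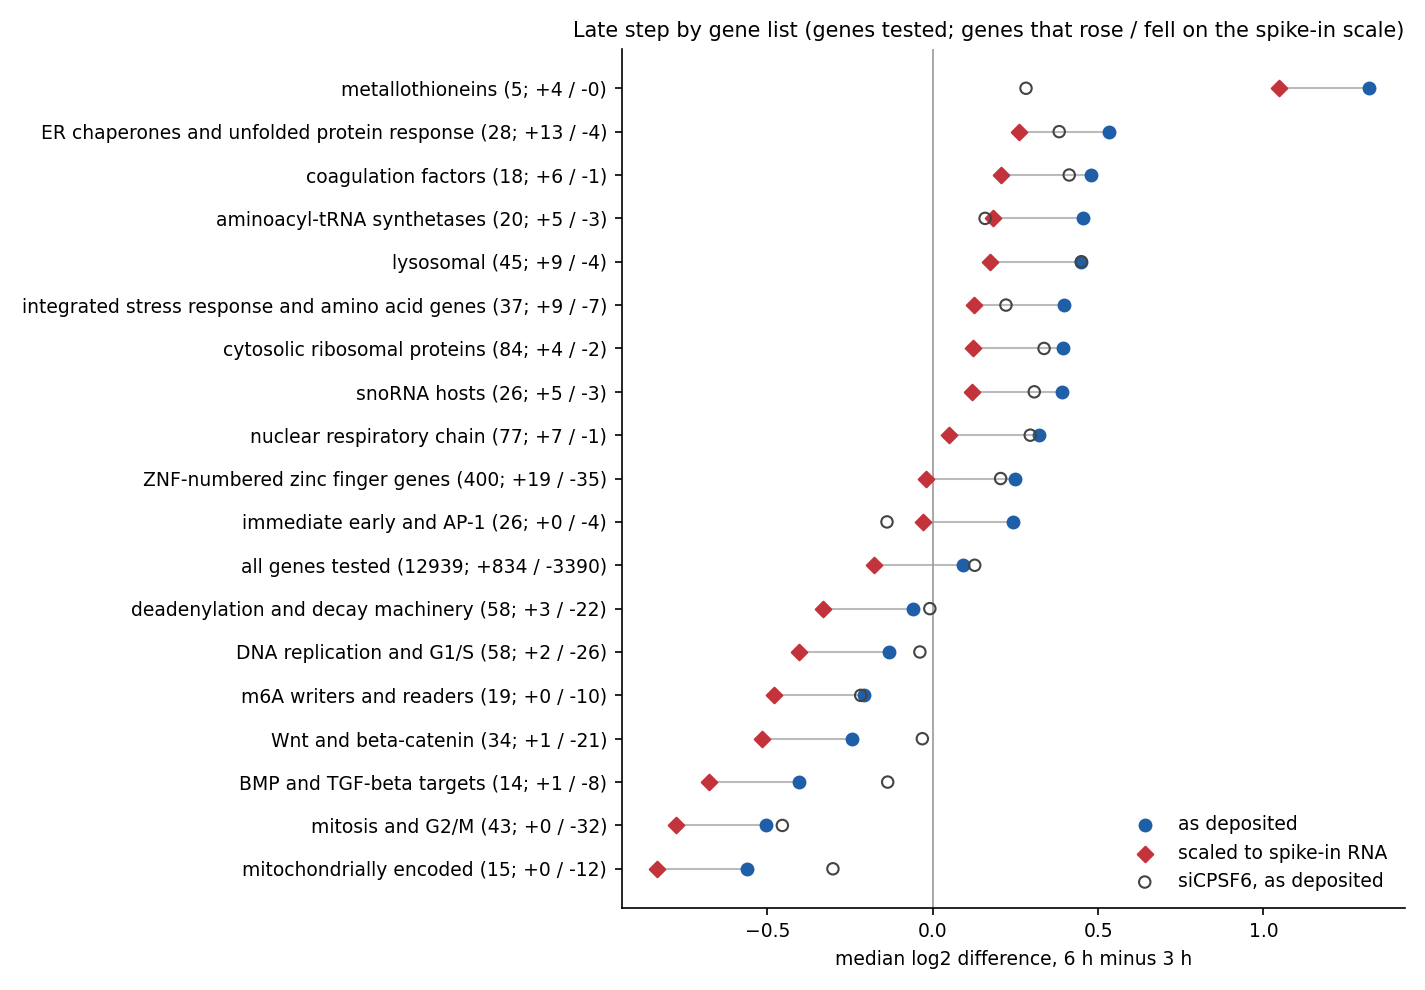
Median log2 difference between 6 and 3 h (x axis) for gene lists and for all genes tested (y axis), with the number tested and the numbers that rose and fell on the spike-in scale in brackets. Filled circles are control cells as deposited, diamonds control cells on the spike-in scale and open circles silenced cells as deposited; metallothioneins lie at 1.32 as deposited in control cells and 0.28 in silenced cells, mitosis genes at -0.51 and -0.46.

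The list of ER chaperones moved up on both scales. Of 28 ER chaperones and genes of the unfolded protein response, 18 were higher and 2 lower as deposited, and 13 were higher and 4 lower on the spike-in scale, with a median of 0.53 and 0.26. MANF, a secreted ER stress protein, rose from 2000 and 2163 to 4209 and 4290, SDF2L1, an ER co-chaperone, from 881 and 851 to 1745 and 1746, and the disulfide isomerase PDIA3 from 25065 and 23000 to 50745 and 45375. XBP1, the transcription factor of that response, went the other way, from 8907 and 8596 at 0 h to 1552 and 1612 and then 461 and 513 (late fall of 1.70 ± 0.08, log2, SE). Of 37 genes of the integrated stress response and amino acid supply, 17 were higher and 7 lower as deposited and 9 higher and 7 lower on the spike-in scale, so this list moved both ways. Asparagine synthetase, ASNS, was at 601 and 464, then 782 and 722, then 2828 and 2165, mitochondrial PEP carboxykinase, PCK2, at 3638 and 3731 and then 12601 and 10857, and SLC7A11 at 364 and 324 and then 1403 and 1242. In each of these 3 genes both 6 h libraries stood far above every earlier one. PYCR1 of proline synthesis and SHMT2 of serine metabolism rose by 0.96 and 0.84 (log2) as deposited. Of 20 aminoacyl-tRNA synthetases 5 were higher and 3 lower on the spike-in scale and 15 higher and 3 lower as deposited: AARS1 rose from 4537 and 4421 to 9447 and 8698, CARS1 from 715 and 732 to 1457 and 1379 and KARS1 from 3626 and 3787 to 6724 and 7010, while FARSA fell from 1966 and 2152 to 895 and 1066.

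Metallothioneins, small zinc-binding proteins, had a median of 1.32 as deposited and 1.05 on the spike-in scale, with 4 of 5 higher on both and 0 lower. MT1G went from 20 and 19 to 154 and 190 normalized counts, MT1E from 161 and 165 to 466 and 554 and MT2A from 887 and 784 to 1990 and 2181. These genes are close relatives, and reads may have been shared among them. In silenced cells the same list had a median of 0.28 as deposited, with MT1G at 22 and 29 and then 29 and 33.

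Secreted liver proteins did not move as one. Of 18 coagulation factors 10 were higher and 0 lower as deposited and 6 higher and 1 lower on the spike-in scale. The 3 fibrinogen chains rose together: FGA from 7233 and 6198 to 19136 and 16737, FGB from 1868 and 1789 to 4867 and 4338 and FGG from 7144 and 6275 to 20568 and 19106. Of 18 apolipoproteins 6 were higher and 7 lower as deposited, and 4 higher and 9 lower on the spike-in scale; APOC3 fell from 2431 and 2283 to 1523 and 1426, APOA2 rose from 45409 and 39049 to 80115 and 69887, and APOB rose as deposited. Transthyretin, TTR, rose from 970 and 889 to 2249 and 2302. Albumin, ALB, at 251842 and 226743 and then 275550 and 256125, did not pass on either scale (0.15 as deposited, adjusted p = 0.11; -0.12 on the spike-in scale, 0.52), but passed as deposited with the replicate number as a block (adjusted p = 0.018). Lysosomal genes were on the upper side as deposited, 31 of 45 higher and 4 lower, but on the spike-in scale 9 were higher and 4 lower; the proteases CTSH, from 4663 and 4514 to 9302 and 8991, and CTSB rose. Among single genes of other lists the IGF carrier IGFBP4 rose from 1654 and 1836 to 6185 and 6191, the kinase AKT1 from 3103 and 3019 to 6821 and 6150, and the transferrin receptor TFRC from 13797 and 12151 to 25794 and 24476, while the mTORC1 activator RHEB fell from 1587 and 1638 to 989 and 1045.

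A large group was higher only as deposited, which is where the scale decides the call. Of 84 cytosolic ribosomal protein genes 71 were higher and 1 lower as deposited, but 4 higher and 2 lower on the spike-in scale, with medians of 0.39 and 0.12. RPLP2 is typical, at 14800 and 14125 and then 21654 and 20051: 0.53 as deposited (adjusted p = 1.1e-05) and 0.25 on the spike-in scale (0.15). The snoRNA host genes had 21 of 26 higher and 2 lower as deposited, and 5 higher and 3 lower on the spike-in scale. GAPDH, at 125478 and 111978 and then 174700 and 158907, passed as deposited (0.49) and not on the spike-in scale (0.22, adjusted p = 0.19), and the same was true of ACTB (0.27 and -0.01).

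Of 26 immediate early and AP-1 genes, whose mRNAs are mostly short-lived, 22 were not called on the spike-in scale in the late step, beside 67.4% of all genes, and 4 were lower and 0 higher; as deposited 14 were not called, 4 were lower and 8 higher. On the spike-in scale the late step was less negative than the early one for 2849 genes (22.0%) and more negative for 411 (3.18%); as deposited the split was 2360 and 3447, and with the replicate number as a block 763 were more negative. Of the immediate early list, 22 genes were in the first group, and its median was -2.79 for the early and -0.03 for the late step. Both steps share the 3 h libraries, so a low 3 h value enters them with opposite sign. MYC, the short-lived growth regulator, went from 3230 and 3161 to 149 and 102 and then 143 and 154, a late difference of -0.01 (adjusted p = 0.99, spike-in scale). NFKBIA, the NF-kB inhibitor, went from 1679 and 2129 to 43 and 76 and then 51 and 78, and DUSP6, a phosphatase that limits ERK, from 1042 and 769 to 44 and 25 and then 86 and 57. DUSP6 passed with the replicate number as a block (0.78 on the spike-in scale, adjusted p = 4.2e-04). HES1, SGK1, CCDC71 and BAMBI had the same shape, at levels between 5 and 81 normalized counts from 3 h on, where few reads support each value. Not all early losers stopped: JUND fell further from 454 and 494 to 132 and 168, and ZFP36L2, which speeds the decay of AU-rich mRNAs, from 326 and 339 to 179 and 186. Of 400 zinc finger genes named ZNF, 243 had a less negative late step, with medians of -1.47 early and -0.02 late, and 19 were higher and 35 lower in the late step on the spike-in scale, against 96 higher and 21 lower as deposited.

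**Figure D3:**
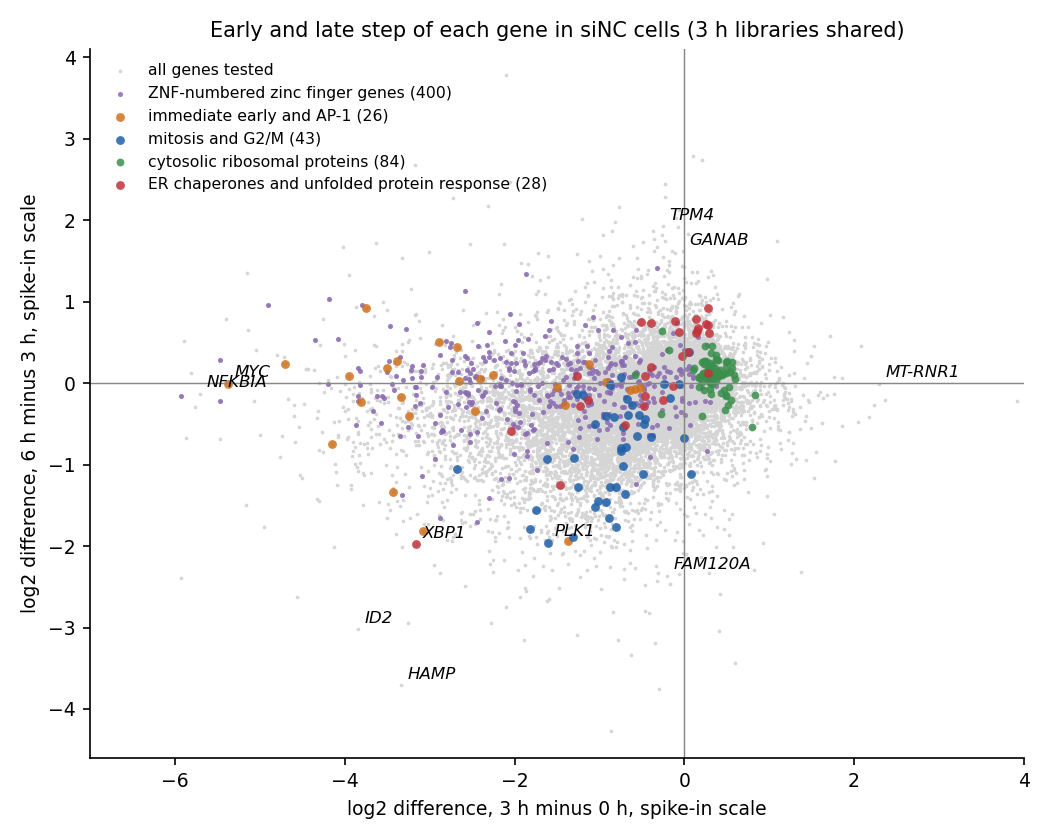
Log2 difference on the spike-in scale from 0 to 3 h (x axis) and from 3 to 6 h (y axis) in control cells, 1 point per gene, with 5 lists coloured. Immediate early and ZNF genes lie far left and near 0 on the y axis (list medians -2.79 and -1.47 early, -0.03 and -0.02 late), mitosis genes lie below (-0.78 late), and HAMP and ID2 fell in both steps.

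The late step was then compared with that of silenced cells. As deposited, 966 genes had a higher step in control cells (7.47%) and 1015 a lower one (7.84%), with a median difference near 0. On the spike-in scale the numbers were 341 and 263, and with the replicate number as a block 1588 and 1601. Genes lower in control cells included several whose mRNA did not fall in silenced cells at all. FAM120A, at 3414 and 2977 and then 4270 and 3622 in silenced cells, differed by -2.39 ± 0.13 (log2, SE, adjusted p = 5.6e-08), and NIPSNAP2 by -2.34 and GM2A by -2.26. For these 3 the silenced libraries at 6 h were higher than the control libraries at 6 h by a wide gap. HNRNPF stood at 7868 and 7949 and then 6341 and 6692 in silenced cells, a difference of -1.52 (adjusted p = 9.3e-08), and DKK1 at 12017 and 10224 and then 8970 and 7930, a difference of -1.65. SLC6A12 (-3.32), PHLDA3 (-2.55), TRPV4 (-2.45) and PTGDR2 had differences more negative than these, but SLC6A12, PTGDR2 and TRPV4 were already at lower levels in silenced cells at 3 h. The 3 h libraries of both arms also enter the test of this difference.

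Among genes with a higher step in control cells, most of those named were already higher in silenced cells at 3 h. The 3 h libraries of both arms also enter the test that chose these genes. CHST14 was at 1721 and 1549 in silenced cells at 3 h and 2225 and 2064 at 6 h, against 239 and 233 and then 1304 and 1270 in control cells (difference 2.05 ± 0.13, log2, SE, adjusted p = 2.3e-07). TPM4 was at 11638 and 12036 and then 14579 and 14449, and IGFBP4 at 10949 and 9441 and then 15098 and 12947. In CHST14 and IGFBP4 the control libraries at 6 h lay between their own 3 h level and the silenced level, and in TPM4 they went past it. Of the 304 genes that rose at least 2-fold, 235 were higher in silenced than in control cells at 3 h without overlap of the libraries. Over all genes 36.8% were higher in this way. Another 29 of the 304 were lower, and the share of all genes that were lower was not counted. The control 3 h libraries also chose the 304, which favours low control values at 3 h. ASNS (difference 1.60), MT1G (2.79), MT1E (1.71), NTN4 (2.08) and FGG (1.13) rose in control cells to levels above those of silenced cells at 6 h. DUS2 and PRMT6 rose in control cells and had lower values at 6 h than at 3 h in silenced cells. BAMBI and CCDC71 also had a higher step in control cells: BAMBI was at 66 and 38 and then 8 and 3 in silenced cells, and at 5 and 15 and then 9 and 8 in control cells.

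**Figure D4:**
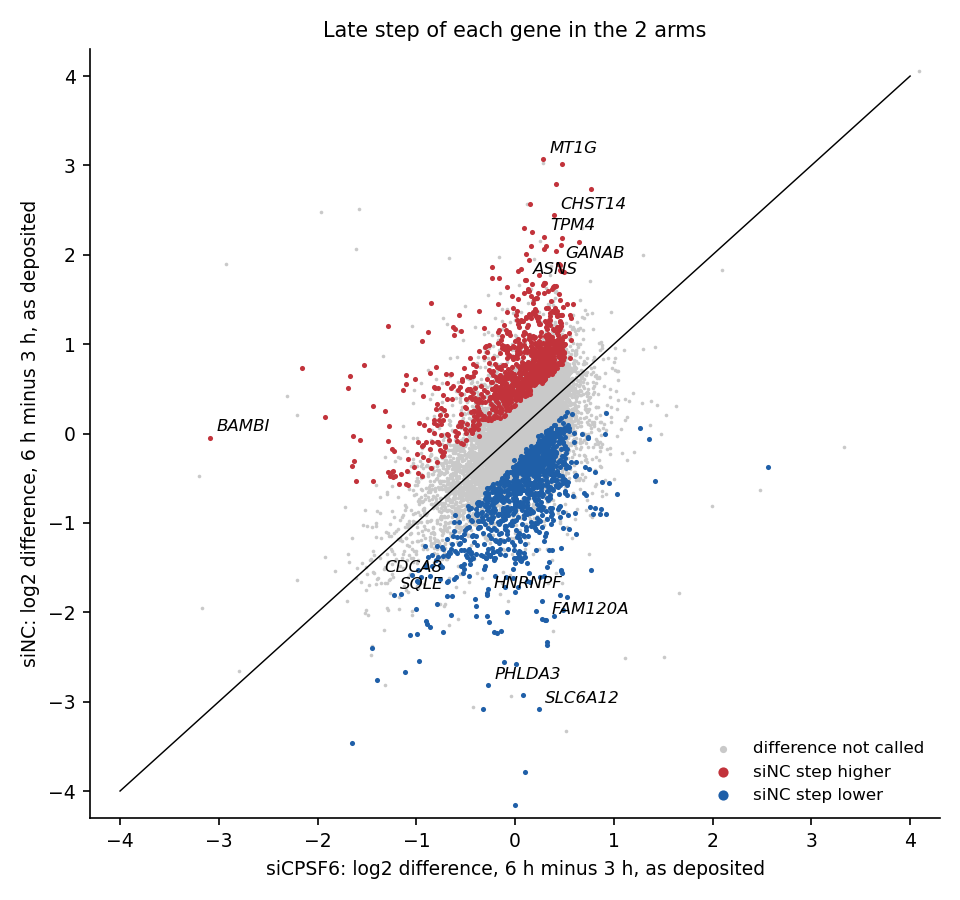
Late step of each tested gene (log2, 6 h minus 3 h, as deposited) in silenced cells (x axis) and control cells (y axis), with the line of equality. Red and blue points are the 966 and 1015 genes whose step was called higher or lower in control cells; TPM4 and CHST14 lie far above the line and FAM120A, HNRNPF and SLC6A12 far below it, while CDCA8 lies near it.

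Sequence features of the mRNAs were read from the GENCODE 29 annotation, using 1 transcript per gene. Among 11222 tested genes with a 3′ UTR of at least 50 bases, 26.3% held the letters TGTANATA, the core bound by Pumilio proteins, which recruit deadenylases to mRNAs. Only the strand of the transcript was searched, and N is any base. The share was 34.7% in genes that were lower on the spike-in scale, 23.6% in genes not called and 17.4% in genes that were higher; as deposited it was 35.6%, 26.1% and 20.2%. Longer 3′ UTRs hold more matches by length alone, so the genes were split into 3 equal classes by 3′ UTR length. In the shortest class the shares were 12.5% among genes lower, 5.66% among genes not called and 3.06% among genes higher, in the middle class 31.9%, 19.2% and 13.5%, and in the longest 55.3%, 46.7% and 45.7%. The order was the same in each class. Base composition differed too: the median GC content of these 3′ UTRs was 45.0%, 47.1% and 47.9% in the shortest class. In the middle class it was 42.7%, 44.5% and 46.6%, and in the longest 39.2%, 40.2% and 39.5%. Its part in the shares was not tested. With 0, 1 and 2 matches the median late step was -0.15, -0.28 and -0.36 on the spike-in scale, and with 3 or more it was -0.30. In silenced cells, which share no library with these, it was -0.17, -0.29, -0.34 and -0.29.

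The letters TATTTAT, an AU-rich element that zinc finger proteins such as ZFP36L2 bind, were counted in the same way, and a difference between the motifs was not tested; the 2 motifs share no full match but may overlap at their ends. They were found in 31.1% of the same 3′ UTRs, in 32.5% of genes lower, 31.1% of genes not called and 25.5% of genes higher in the late step on the spike-in scale. By 3′ UTR length these shares were 7.80%, 10.4% and 6.46% in the shortest class, 24.8%, 26.1% and 24.6% in the middle class and 59.8%, 57.7% and 57.0% in the longest. For the early step, which shares the 3 h libraries, both motifs were more frequent among genes that were lower than among genes not called, 40.1% against 22.7% for TATTTAT and 35.7% against 17.0% for TGTANATA. PUM2, which encodes a Pumilio protein, fell itself, from 1553 and 1795 to 1011 and 976. A match describes the letters and does not show binding.

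Shown here are 5 named genes that fell on both scales and hold at least 2 TGTANATA matches, a set that need not be complete. Each is given with 30 bases around the first match, 5′ to 3′ on the transcript (GENCODE 29, hg38). They are shown because they give examples of the sequence behind these shares. Capitals mark the 8 matching letters.
GCLC (chr6:53498557-53498586, - strand): tacagtgtacaTGTACATAgtaaagtattt
KLF13 (chr15:31372594-31372623, + strand): ccgccttactcTGTACATAgatttgcactc
LGR4 (chr11:27366478-27366507, - strand): aataattaaacTGTACATActgtgcatata
PUM2 (chr2:20251142-20251171, - strand): gtttatagagaTGTATATAgaattatagtc
TTK (chr6:80042369-80042398, + strand): acttatggcacTGTATATAttgtagacttg
All 5 lie in 3′ UTRs, of 1415 bases for GCLC, 5600 for KLF13, 1906 for LGR4, 2894 for PUM2 and 325 for TTK. GCLC, KLF13 and LGR4 share the letters TGTACATA, and PUM2 and TTK share TGTATATA. On the spike-in scale the late steps were -1.75, -1.10, -1.75, -1.02 and -1.79 in the order shown.

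**Figure D5:**
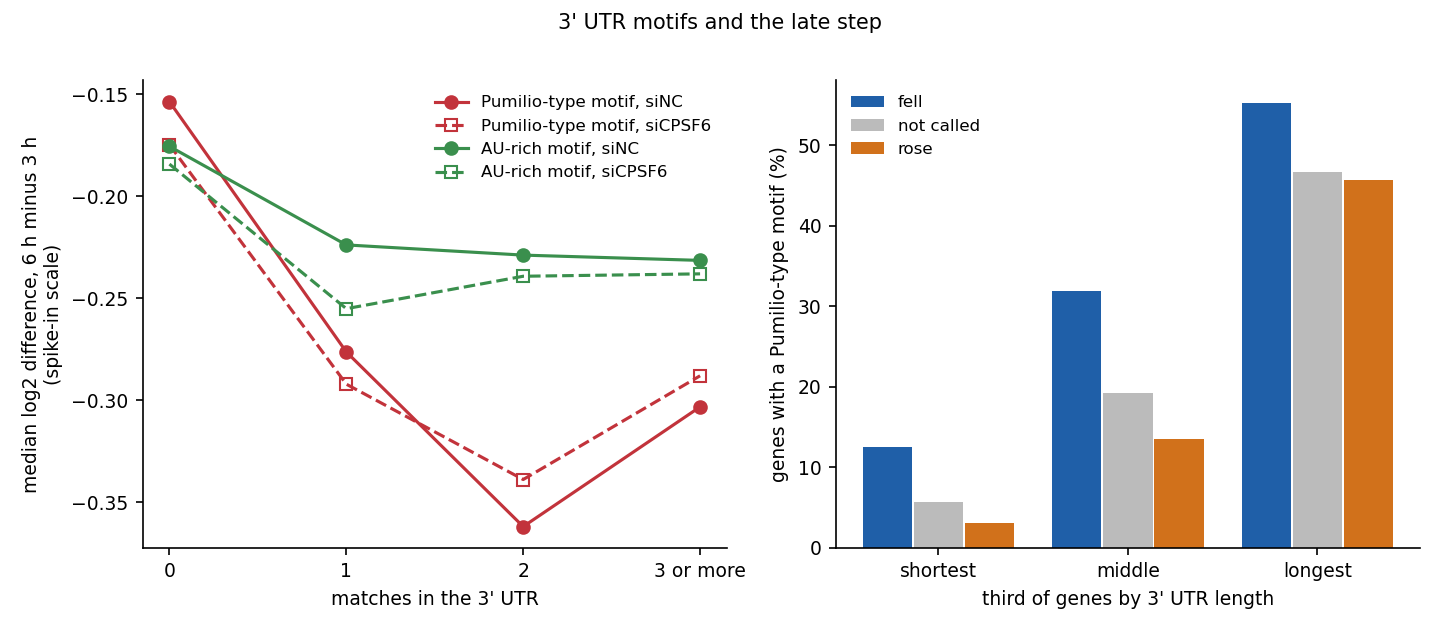
Left, median late step on the spike-in scale (y axis, log2) by number of matches in the 3′ UTR (x axis) for TGTANATA and TATTTAT in control cells (filled) and silenced cells (open). Right, percentage of genes with a TGTANATA match (y axis) by class of 3′ UTR length (x axis) among genes that were lower, not called or higher in control cells on the spike-in scale; in the shortest class these are 12.5%, 5.66% and 3.06%.

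Length itself was related weakly to the late step. The median transcript was 3459 bases long in genes lower, 3047 in genes not called and 2501 in genes higher on the spike-in scale. Across 12882 genes, which are not independent replicates, Spearman's rho between transcript length and the late step was -0.13, beside -0.30 for the early step. The GC content of the last codon position had a rho of 0.03 with the late and 0.26 with the early step. These are descriptions with no test.

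The ratio of a gene's normalized count to its TPM follows the mean length of the transcripts counted for it. Of 10542 genes with a mean of at least 100 normalized counts, 71 had a longer apparent length at 6 h than at 3 h (0.673%) and 291 a shorter one (2.76%), together 3.43%, and with the replicate number as a block 25 and 61. With 1 library left out at a time these counts ran from 5 to 106 and from 5 to 552, so no gene is named for it.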

How the data were processed

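RNA from HepG2 cells was sequenced as mRNA libraries made with a directional kit, per the labels' protocols. STAR, RSEM and hg38 are named in the submitters' processing notes; for tool versions, annotation and strand setting no source used here gives a value. The authors deposited 2 tables of 22235 rows, 87 of them spike-in RNA: a table of normalized counts (a score here, since the values are whole numbers scaled to 1 upper quartile, not raw counts) and a TPM table. Because the values are not raw counts, no count model was used, as the design had provided. Of 22148 genes, 12939 had a mean of at least 20 normalized counts over 12 libraries and were tested; 12882 of them are in GENCODE 29, which gave positions and transcripts.

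Log2(normalized count + 1) was fitted with limma 3.58.1 (R 4.3.3, trend and robust settings) with 6 group means over 12 libraries and 6 residual degrees of freedom, and p-values were adjusted by Benjamini-Hochberg with a threshold of 0.05. Fold changes are on that scale and understate the change of low genes. The spike-in scale divides each library by its summed spike-in count. The same model tested the late step between the arms, the late against the early step, and the log2 ratio of count to TPM (apparent length, centred per library). The alternatives were other pseudocounts (0.1 and 10), filters, limma settings, scalings, the TPM table with a pseudocount of 0.1, a replicate block and leaving out each library; the scripts were tested on simulated data. Replicate correlations were 0.991 to 0.993 and no library repeated another.

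A pairing of libraries by replicate number was inferred from the values alone, and the labels name no shared batch. Same-numbered libraries deviated together in all 15 pairs of groups (r 0.108 to 0.236). The main fits do not use this pairing. It enters only the alternative with the replicate number as a block, and SEs, p-values and calls are unpaired unless the block is named. The comparison, the gene lists and the tests were chosen with earlier results of these data known. Genes named are CPSF6, MYC, ALB, GAPDH and ACTB, the 12 largest rises and 12 largest falls that passed on both scales, up to 8 each way for the other tests, and up to 4 members of each list with the smallest p, all with a mean of at least 100 except list members; not every gene of the rule is printed, and some results are not reported here. In all 50 lists were counted. Of the genes named, some overlap an exon of another gene, 42 of them on the opposite strand and 20 on the same strand, and their reads are uncertain to that extent.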

Additional observations from a re-analysis of the deposited data

Results flagged for a closer look

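The late step differed between control and silenced cells in 39 of the genes named. Counted were those in which the test of the difference passed as deposited, on the spike-in scale and in TPM. The difference also had to be at least 1 (log2, as deposited). Up to 8 genes each way were named because this same difference was largest as deposited, so the number 39 is no independent result. Over all 12939 genes tested 15.3% were called as deposited, and the share meeting all of these limits was not counted. In 18 of the 39 the step was lower in control cells. These were SLC6A12 (-3.32), PHLDA3 (-2.55), TRPV4 (-2.45), FAM120A (-2.39), the pseudogene ACSL3P1 (-2.35), NIPSNAP2 (-2.34), GM2A (-2.26), CREB3L3 (-1.76), DKK1 (-1.65), SLC51B (-1.57), HNRNPF (-1.52), NRARP (-1.44), ID2 (-1.36), FEN1 (-1.20), ATG101 (-1.18), NR1H4 (-1.18), APOC3 (-1.12) and MSMO1 (-1.11).

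In the other 21 the step was higher in control cells. They were FGG (1.13), IGFBP4 (1.37), PCK2 (1.38), GANAB (1.45), ASNS (1.60), MESD (1.63), SLC7A11 (1.80), MT1E (1.71), MT1G (2.79), PPARG (1.53), SERPINI1 (1.65), LCN15 (1.78), HABP4 (1.89), TPM4 (1.91), PRMT6 (1.98), DUS2 (1.99), CHST14 (2.05), NTN4 (2.08), CCDC71 (2.30), UGT1A1 (2.55) and BAMBI (3.04).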

How the results depend on the processing

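The scale moved the counts most. The 3768 genes higher as deposited became 1256 with TPM values, 834 on the spike-in scale and 3014 with median-ratio scaling (3000 lower). The 834 higher on the spike-in scale became 526 with TPM scaled the same way, and 753 (3598 lower) with a scale from the median over spike-in rows, an alternative chosen after seeing the data. The difference between the arms gave 463 higher and 516 lower with TPM, and 341 and 263 on the spike-in scale. The late against the early step gave 1642 higher with TPM and 3447 lower as deposited. With the replicate block the late step had 4286 higher and 2890 lower genes as deposited and 1222 and 4230 on the spike-in scale; the block gave 1588 and 1601 for the arms, 763 lower for late against early, and 25 longer and 61 shorter apparent lengths. Among the late differences of the genes named, the block changed the call of ALB, DUSP6 and LYZ and of no other. Other pseudocounts, filters and limma settings kept these counts within 1.5 times.

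Leaving out 1 library at a time gave 2939 to 3784 higher and 1962 to 2545 lower as deposited, and 462 to 1193 higher and 2062 to 3996 lower on the spike-in scale. There the higher count was 462 and 546 without si-NC 3 h replicate 1 and 2 and 488 without si-NC 6 h replicate 2, and the lower count 2062 without si-NC 3 h replicate 2 and 2103 without si-NC 6 h replicate 1. The arms gave 714 to 892 and 693 to 1014. Late against early gave 1604 to 3465 higher, the lowest without si-NC 3 h replicate 1, and 174 to 666 lower, with 182 and 174 without si-NC 3 h replicate 1 and 2 and 666 and 665 without si-CPSF6 3 h replicate 1 and 2. Apparent length gave 5 to 106 and 5 to 552. The lone library of a group is then assumed to vary like the others.

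Of 119 genes with late differences, these changed sign. As deposited they took these values with TPM and on the spike-in scale: ACTB -0.037 and -0.0078, ALB -0.13 and -0.12, CPSF6 -0.018 and -0.23 (-0.033 with median-ratio scaling), MYC -0.085 and -0.0054, NFKBIA -0.086 and -0.13; MT-RNR1 was -0.005 on the spike-in scale. With 1 library left out, values as deposited ran from -0.75 to 0.66 for BAMBI, -0.0058 to 0.54 for MYC and -0.26 to 0.54 for NFKBIA. On the spike-in scale they ran from -0.16 to 0.15 for ACTB, -1.04 to 0.46 for BAMBI, -0.074 to 0.064 for MT-RNR1, -0.22 to 0.21 for MYC and -0.58 to 0.33 for NFKBIA. The cause was not tested. With 2 libraries a group, and few reads behind genes at low counts, small differences were not detectable.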

Other observations

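Several lists not described above were also counted, and in some the balance of higher and lower genes turned with the scale. Over all called genes 60.1% were higher as deposited and 19.7% on the spike-in scale. Of 77 mitochondrial ribosomal protein genes 26 were higher and 29 lower as deposited, and 2 higher and 30 lower on the spike-in scale (median -0.30). Of 46 proteasome subunits 11 were lower and 2 higher on the spike-in scale (9 and 18 as deposited), and of 42 translation initiation factors 10 were lower and 4 higher (8 and 17 as deposited), both close to the 26.2% of all genes that were lower. Of 33 p53 targets 12 were lower and 0 higher on that scale, and 9 lower and 5 higher as deposited. Of 30 genes of insulin and IGF signalling 15 were lower and 5 higher on the spike-in scale (9 and 6 as deposited), and of 22 interferon genes 4 were lower and 1 higher (2 and 5 as deposited). Of 33 genes of glycolysis and the pentose phosphate pathway 16 were higher and 2 lower as deposited, and 4 higher and 3 lower on the spike-in scale. Of 12 replication-dependent histone genes 1 was higher as deposited, and 0 were called on the spike-in scale. Of 190 antisense RNAs 19 were lower and 12 higher on the spike-in scale, but 12 lower and 35 higher as deposited. Of 105 LINC RNAs 12 were lower and 5 higher on the spike-in scale, but 8 lower and 18 higher as deposited.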
